A study of Sus scrofa with 9 samples.

Results

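A set of 9 annotated porcine genes for long non-coding RNA (lncRNA), out of 35505 genes and assembly loci in the lncRNA table, was followed through MII oocytes, PN embryos and sperm. They are among the lncRNAs that the study lists as present in sperm, and they were chosen by 2 measured values, a coverage above 0 in all 3 sperm libraries and a sperm mean at least 10 times the mean of MII oocytes. The list itself was drawn up on the levels in all 3 groups. The sperm levels and their distance from the other groups are therefore given as a description, without a test. The study sought RNAs that the sperm carries into the egg at fertilization.

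The 9 libraries form 3 groups of 3. Every library is labelled as without treatment, and the labels name no allele or agent. MII oocytes are mature eggs, halted in metaphase II until a sperm enters. Here they were matured in culture from the ovaries of slaughtered postpubertal gilts and freed of cumulus cells. PN embryos are 1-cell embryos with separate male and female pronuclei, made by in vitro fertilization of such oocytes and pooled, as the oocytes were. After fertilization, cumulus cells and excess sperm on the surface were removed by vortexing. Sperm for the libraries were purified from fresh semen of adult Large White boars. For in vitro fertilization the methods of the study name Landrace boars instead, and for the oocytes Long White pigs. Nothing in the labels says that the replicates of a group came from separate animals or pools, so that the spread between them may be technical.

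Long non-coding RNAs are transcripts without a long open reading frame, and many of them act on chromatin, splicing or the stability of other RNAs. The testis expresses more lncRNA genes than most tissues, mainly during meiosis and the shaping of spermatids. Mature sperm have shed most of their cytoplasm and are largely silent in transcription, and they carry RNA left from these earlier stages as well as RNA taken up in the epididymis and from seminal plasma. Of the 9 genes, 0 could be matched to a gene symbol in the reference tables used here, and no function is stated for any of them. Their position in the genome and their sequences were not analysed here.

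The values were coverage, the mean read depth along a transcript, as deposited. The coverages of a library summed to 1423560 to 1480714 in MII oocytes, 1345257 to 1412962 in PN embryos and 2317207 to 2418233 in sperm. Coverage does not give the number of reads, although counts estimated from it are known for 7 of the genes and are given further on. No interval is given for a coverage, and a group at 0 is only listed at 0. The labelled cell types were checked on marker genes, as far as the lncRNA table lists transcripts under their symbols. All 10 markers found were there through assembled transcripts and 0 through Ensembl ones. Their values are therefore those of assembled transcripts filed under a symbol in the lncRNA table, and the mRNAs of these markers were not measured here. Transcripts under PRM1, the gene of protamine 1, which packs the DNA of the sperm head, had coverages of 22557, 25549 and 26768 in the sperm libraries, 0.98, 0 and 5.27 in MII oocytes and 12.8, 8.91 and 17.2 in PN embryos. Those under ODF2, of the outer dense fibres of the sperm tail, had 250, 1320 and 367 in sperm and at most 0.89 elsewhere, while those under GSG1, a germ cell gene, were found in sperm replicate 3 alone (104). Transcripts under OOSP3, the gene of a secreted protein of the oocyte, lay between 2400 and 2862 in MII oocytes and PN embryos and reached at most 1.84 in sperm. Those under BTG4, a gene that acts in the clearance of maternal mRNA, were listed at 0 in every MII oocyte library, with 101 in PN embryo replicate 1 and 480 in sperm replicate 2. The summed transcripts under oocyte symbols in sperm thus ranged from 1.4 to 480. In bulk RNA, fewer cells of a type and less RNA per cell cannot be told apart.

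Of the leukocyte symbols, 2 of 6 were in the table, and their summed coverage was 0 in every MII oocyte library, at most 0.56 in PN embryos and 0 to 528 in sperm. Transcripts under PTPRC, the gene of the common leukocyte antigen, had 506, 317 and 0 in the sperm libraries, each on a transcript found in 1 library. Those under CSF3R, the gene of the receptor for granulocyte colony-stimulating factor, had 0, 211 and 0. Of the cumulus and granulosa symbols, 3 of 6 were in the table, with sums of 196 to 393 in MII oocytes, 69.8 to 387 in PN embryos and 208 to 2337 in sperm. The sperm sums came from transcripts under CYP19A1, the aromatase gene (821, 1842 and 208), and in replicate 2 also under AMH (494), while those under FSHR had 0, 0.84 and 0. Of the symbols for epididymis and accessory glands, 0 of 6 were in the table. The part that RNA of other cells had in the sperm levels of the 9 genes was not tested.

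The table lists 34 transcripts for the 9 genes. Of these, 16 are Ensembl transcripts, models of the public annotation, and 18 were built from the reads by the assembler, named with the prefix MSTRG, and were assigned to the gene in the file. Coverage was summed over the transcripts of a gene. In sperm, the 9 genes had means from 26.5 to 801, and their median difference from MII oocytes was 7.09 on the scale of log2(coverage + 1), beside a median of -1.69 over all genes of the table. Against PN embryos the median difference was 6.92, beside -1.21 over all genes. The rule was met by 608 of the 35505 genes (1.71%) and by 47 of the 1725 genes with an Ensembl lncRNA transcript (2.72%), so that the 9 genes are part of a larger set. The 9 genes met it by choice, and nothing is read from their number.

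**Figure D1:**
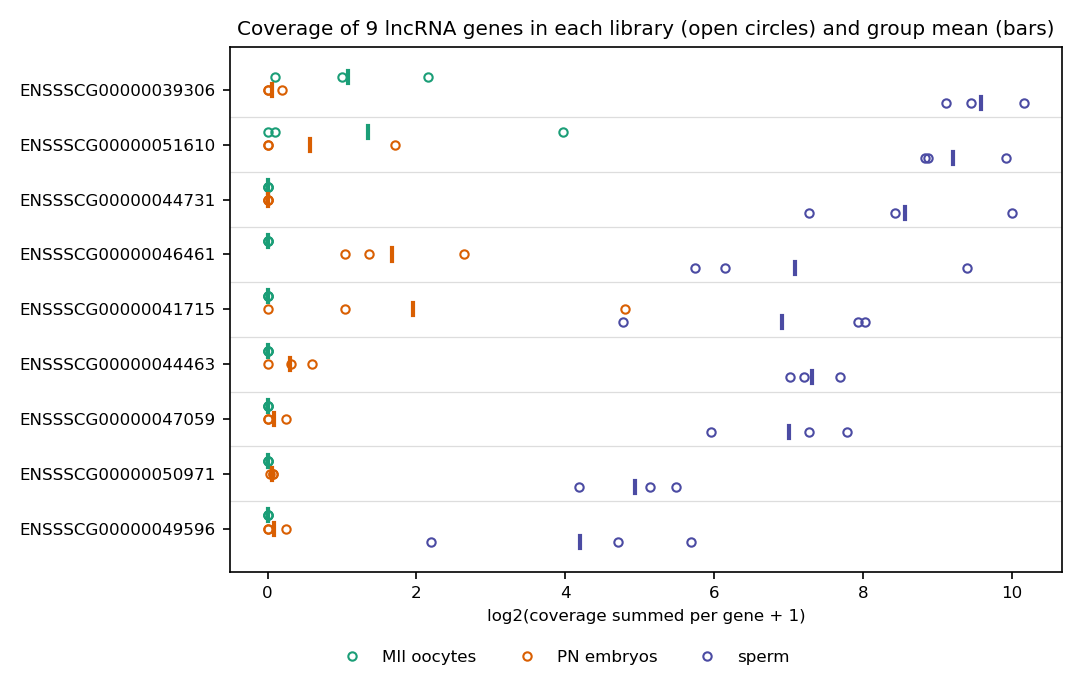
Coverage of the 9 genes, summed over transcripts, on the scale of log2(coverage + 1) (x axis), by gene (y axis). Open circles are libraries (3 per group, colours as in the key) and bars are group means. All sperm circles lie to the right of the MII oocyte circles of the same gene, and for ENSSSCG00000041715 alone a PN embryo circle reaches the lowest sperm circle.

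ENSSSCG00000039306 had the highest sperm mean of the 9 genes. Its coverage was 554, 1147 and 701 in the sperm libraries, a mean of 801 ± 309 (SD, n = 3), and it ranked 272 of all genes by sperm mean. MII oocytes had 0.07, 3.46 and 1 and PN embryos 0, 0 and 0.14, so that the sperm libraries lay apart from the rest. The sperm mean was 530 times the MII oocyte mean. This level rested on 8 assembled transcripts, which held 97.0% of the sperm coverage, and each of them was above 0 in 1 sperm library only. MSTRG.23332.1, MSTRG.23333.1 and MSTRG.23336.1 were found in replicate 1, MSTRG.23331.1 and MSTRG.23334.1 in replicate 2, and MSTRG.23328.1, MSTRG.23329.1 and MSTRG.23330.1 in replicate 3. The Ensembl transcript ENSSSCT00000038772 was the only one of the gene in all 3 sperm libraries, at 4.43, 50.0 and 17.1. The other Ensembl transcript, ENSSSCT00000085842, was listed at 0 in sperm and at 3.46 in MII oocyte replicate 2.

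ENSSSCG00000051610 came next. Its coverage was 455, 970 and 467 in sperm (mean 631 ± 294, SD, n = 3), 14.6, 0.07 and 0 in MII oocytes and 0, 2.28 and 0 in PN embryos. The sperm mean was 129 times that of MII oocytes, a ratio that rests on MII oocyte replicate 1. Without that library it was 18020, and without replicate 2 or 3 it was 86.3 or 85.9. For ENSSSCG00000039306, the other gene with coverage in MII oocytes, it was 359, 1497 and 454 without MII oocyte replicate 1, 2 and 3, so that the order of the 2 ratios turned without replicate 1. Assembled transcripts held 95.6% of the sperm coverage. MSTRG.37350.2 had 431 and 436 in sperm replicates 1 and 3 and 0 in replicate 2, where MSTRG.37352.1 had 719 and MSTRG.37353.1 had 223. The coverage of 14.6 in MII oocyte replicate 1 was also on MSTRG.37352.1. Without the assembled transcripts the gene was the most even of the 9 in sperm. Its Ensembl transcripts together had 24.5, 27.8 and 30.4 (mean 27.6 ± 2.93, SD, n = 3), and ENSSSCT00000080433 alone had 23.1, 27.8 and 16.7.

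ENSSSCG00000044731 was the gene listed at 0 in all MII oocyte and all PN embryo libraries. In sperm it had 1027, 344 and 154 (mean 508 ± 459, SD, n = 3), and the highest library was 6.68 times the lowest. The Ensembl transcript ENSSSCT00000083006 had 255 and 344 in replicates 1 and 2 and was listed at 0 in replicate 3. There the gene was represented by MSTRG.8991.1 (154) alone, and MSTRG.8992.1 added 772 in replicate 1. It was the only one of the 9 genes that did not stay above 0 in all 3 sperm libraries when Ensembl transcripts alone were summed.

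ENSSSCG00000046461 had 671, 69.9 and 52.4 in sperm (mean 264 ± 352, SD, n = 3). Its SD exceeded its mean, since MSTRG.18114.3 had 667 in replicate 1 and 0 in the other 2. The Ensembl transcript ENSSSCT00000087125 had 3.92, 69.9 and 52.4, so that replicate 1, the highest for the gene, was the lowest for this transcript. ENSSSCG00000041715 had 242, 259 and 26.4 (mean 176 ± 130, SD, n = 3). The levels of replicates 1 and 2 lay on different transcripts. MSTRG.45530.1 had 215 in replicate 1 and ENSSSCT00000085647 had 246 in replicate 2, each listed at 0 in the other 2 sperm libraries. The second Ensembl transcript, ENSSSCT00000083307, had 27.8, 13.2 and 26.4, so that it was found in every sperm library.

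ENSSSCG00000044463 and ENSSSCG00000047059 had most of their sperm coverage on 1 Ensembl transcript each. ENSSSCG00000044463 had 129, 207 and 146 in sperm (mean 161 ± 40.6, SD, n = 3), the smallest SD over mean (0.253) of the 9 genes in summed coverage. ENSSSCT00000088917 had 73.2, 72.5 and 146, and MSTRG.62471.2 had 56.0 and 134 in replicates 1 and 2. ENSSSCG00000047059 had 154, 61.4 and 219 (mean 145 ± 79.0, SD, n = 3). ENSSSCT00000079110 had 154, 61.4 and 29.4, and MSTRG.36763.7 had 189 in replicate 3, the replicate in which the Ensembl transcript was lowest.

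ENSSSCG00000050971 and ENSSSCG00000049596 have no assembled transcript in the table and had the lowest sperm means. ENSSSCG00000050971 had 34.3, 17.1 and 44.0 (mean 31.8 ± 13.6, SD, n = 3). ENSSSCT00000079930 had 31.0, 5.77 and 43.5 of this, while ENSSSCT00000067178 had 11.4 in replicate 2 alone. ENSSSCG00000049596 had 50.7, 3.57 and 25.2 (mean 26.5 ± 23.6, SD, n = 3). In replicates 1 and 3 it was ENSSSCT00000050073, and in replicate 2 it was ENSSSCT00000091115, the other transcript being listed at 0 each time. No transcript of this gene was therefore above 0 in all 3 sperm libraries, although the gene was.

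In the order of sperm means (ENSSSCG00000039306, ENSSSCG00000051610, ENSSSCG00000044731, ENSSSCG00000046461, ENSSSCG00000041715, ENSSSCG00000044463, ENSSSCG00000047059, ENSSSCG00000050971, ENSSSCG00000049596), the libraries of neighbouring genes overlapped in all cases but 1. The exception was ENSSSCG00000047059, whose lowest sperm library (61.4) lay above the highest of ENSSSCG00000050971 (44.0). Summing Ensembl transcripts alone gave another order, with ENSSSCG00000044731 first (mean 200), ENSSSCG00000041715 next (105), and ENSSSCG00000039306 last (23.9).

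**Figure D2:**
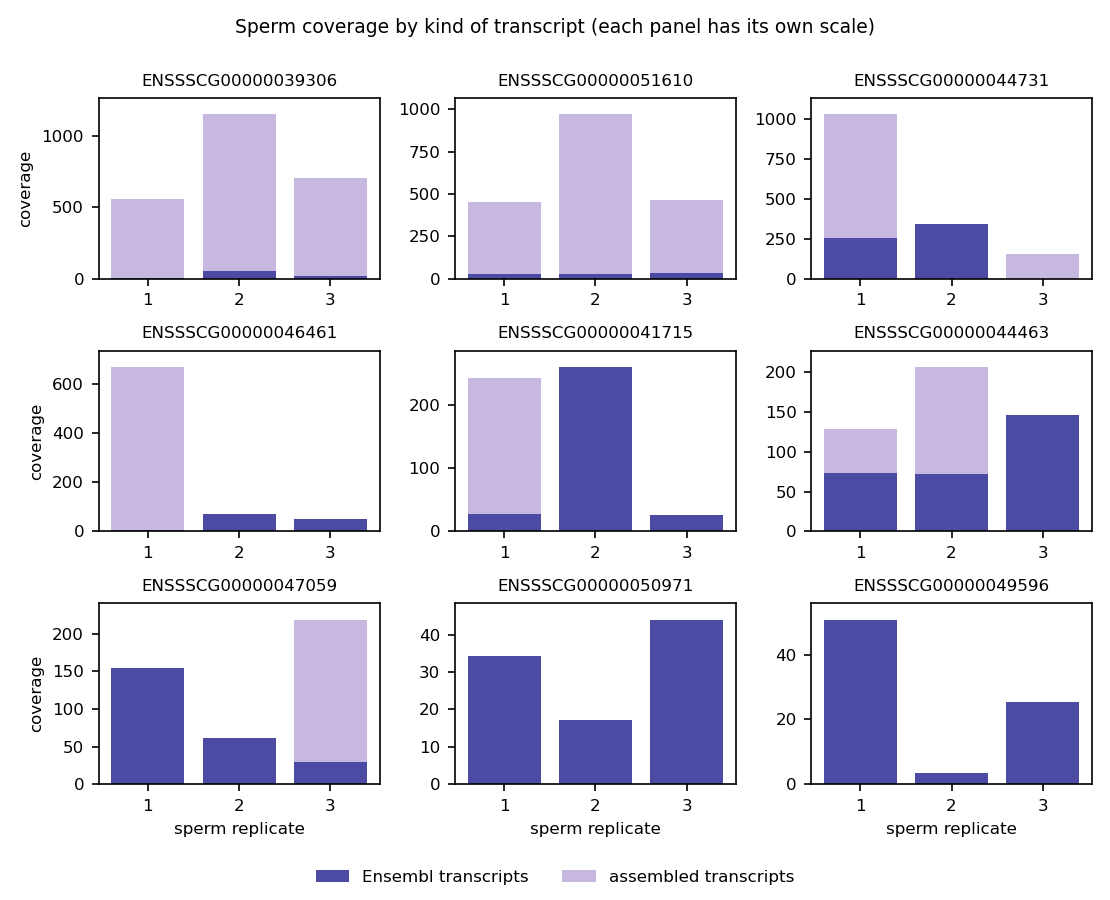
Coverage in the 3 sperm libraries (x axis, replicate) for each gene (panels, each with its own y scale from 0), split into Ensembl transcripts (dark) and assembled transcripts (light). Assembled transcripts held 97.0% of the sperm coverage of ENSSSCG00000039306, 95.6% of that of ENSSSCG00000051610 and none of that of ENSSSCG00000050971 and ENSSSCG00000049596.

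Recurrence in sperm was counted for each kind of transcript. Of the 16 Ensembl transcripts, 7 were above 0 in all 3 sperm libraries, 4 in 2, 3 in 1 and 2 in none. The 7 belong to 7 different genes, and 5 of them were listed at 0 in every MII oocyte library. Of the 18 assembled transcripts, 0 were above 0 in all 3 sperm libraries, 2 in 2, 15 in 1 and 1 in none. Over the whole table, 44 of the 543 Ensembl transcripts found in any sperm library were in all 3 (8.10%), and so were 799 of the 14877 assembled ones (5.37%). Of all assembled transcripts found in sperm, 80.3% were in 1 library alone, against 47.8% of those found in MII oocytes and 48.7% of those found in PN embryos. The genes were chosen for a presence in every sperm library, so that the recurrence of their Ensembl transcripts follows in part from the choice.

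**Figure D3:**
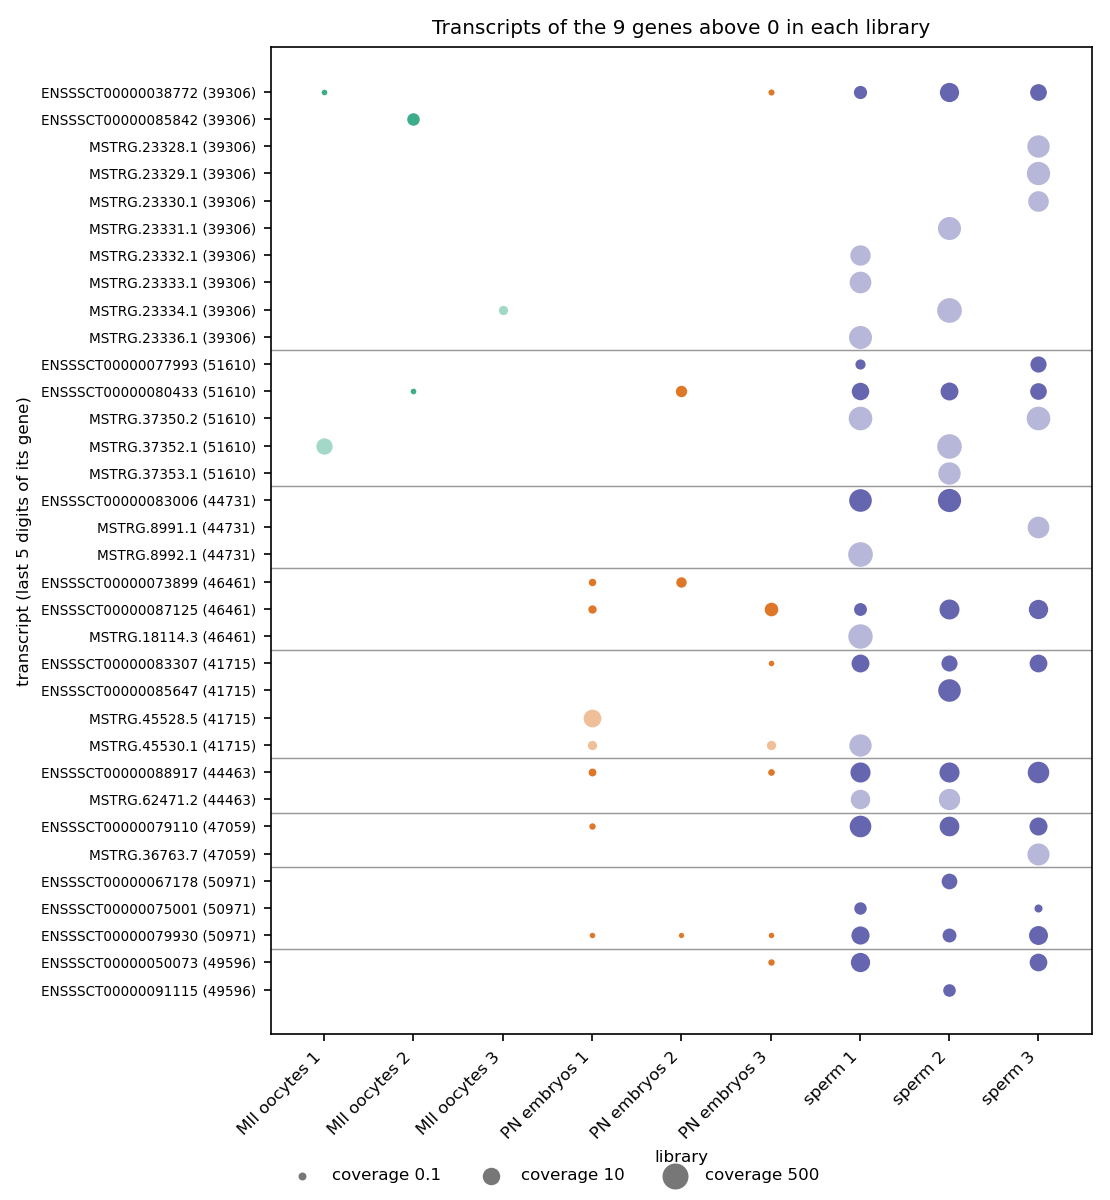
The 34 transcripts of the 9 genes (y axis, with the last 5 digits of the gene) in the 9 libraries (x axis). A dot marks a coverage above 0, its area grows with log2(coverage + 1), colours are groups, and light dots are assembled transcripts. In sperm, 7 Ensembl transcripts and 0 assembled ones have a dot in all 3 libraries.

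The mRNA table gives estimated counts per assembly locus, and 18 of its loci carry the number of an assembled transcript of 7 of the 9 genes. The counts are not a separate measurement. At loci with 1 transcript in the lncRNA table, the count was the same multiple of coverage, within 1%, in every library with a coverage of at least 10 at 15278 of 17622 loci (86.7%). At the 6 member loci found in all sperm libraries, fixed multiples were fitted to the counts for the gene's Ensembl transcripts and the locus' own transcript. With them, coverage gave the counts of all 9 libraries to within 1 count. A transcript above 0 in 1 library can be matched there by the fit itself, so that this match is in part built in. The multiple grows with the length of a transcript if the counts were made from depth and length. It was between 10.9 and 103 (median 18.7) for 9 Ensembl transcripts and between 2.76 and 7.24 (median 3.37) for the 18 assembled ones, and its median over 51038 single-transcript assembly loci of the table was 3.46. Assembled transcripts thus carried fewer counts per unit of coverage than any of the 9 Ensembl ones, and a sum of coverages gives both kinds the same weight.

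On the scale of locus counts, 6 genes had 1 locus above 0 in all 3 sperm libraries, and the other 12 loci were above 0 in 1 sperm library each. MSTRG.62471 (ENSSSCG00000044463) had 1340, 1819 and 1974 counts in sperm, MSTRG.36763 (ENSSSCG00000047059) had 2882, 1149 and 1760, and MSTRG.18114 (ENSSSCG00000046461) had 2253, 1152 and 864. At MSTRG.18114 the highest sperm library was 2.61 times the lowest, against 12.8 times for the summed coverage of the gene. MSTRG.8991 (ENSSSCG00000044731) had 2795, 3768 and 993 counts, and MSTRG.37350 (ENSSSCG00000051610) had 3677, 1456 and 4637. MSTRG.45528 (ENSSSCG00000041715) was the most uneven, with 895, 6877 and 850. Summed over the loci of a gene, ENSSSCG00000051610 had 3677, 4613 and 4637 counts, the highest mean of the 7 genes (4309 ± 547, SD, n = 3). The loci of ENSSSCG00000039306 were all found in 1 sperm library each and summed to 1538, 3513 and 2278. For the 6 genes with a locus in all sperm libraries, the ratio of the highest to the lowest sperm library was smaller in summed counts than in summed coverage in 6 of 6. ENSSSCG00000039306 went the other way (2.28 against 2.07). Its counts cover assembled transcripts alone, while its summed coverage also holds Ensembl transcripts. By SD over mean, ENSSSCG00000041715 was less even in counts (1.05) than in coverage (0.738).

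**Figure D4:**
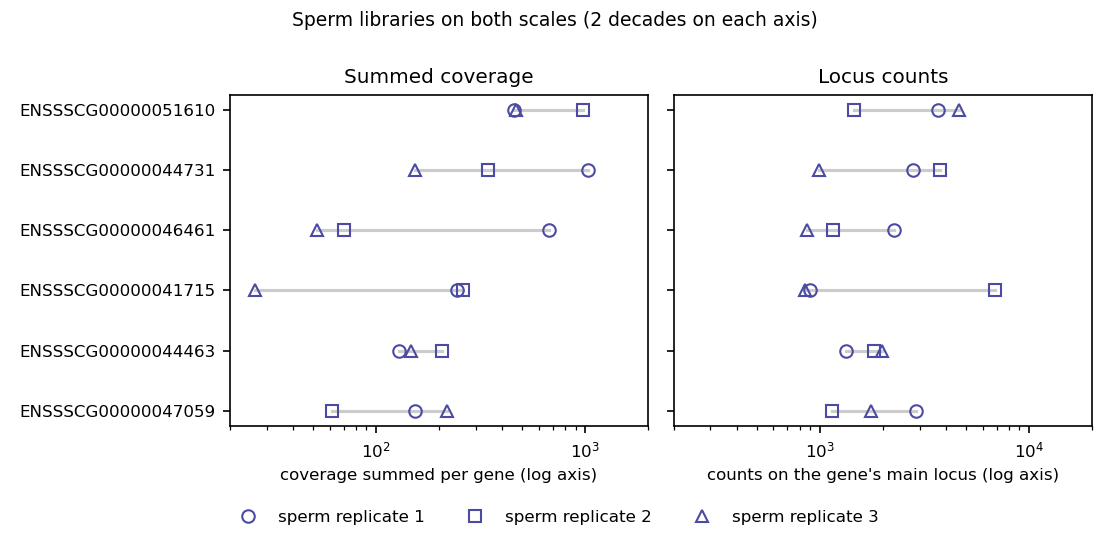
Summed coverage of a gene (left, x axis) and counts on its main assembly locus (right, x axis) in the 3 sperm libraries for 6 genes (y axis), both on log axes of equal span. Marker shapes are replicates and grey lines join the lowest and the highest. ENSSSCG00000046461 spans 12.8 times on the left and 2.61 times on the right, and ENSSSCG00000041715 stays wide on both (9.83 and 8.09 times). ENSSSCG00000051610 spans 2.13 times as a gene on the left and 3.18 times at its main locus on the right. In counts summed over all loci of a gene, ENSSSCG00000051610 spans 1.26 times and ENSSSCG00000044731 6.33 times, against 3.79 times at the main locus of the latter.

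PN embryos had little of these RNAs, and 7 of the 9 genes had a PN embryo mean under 1. Summed over the 9 genes, PN embryos had 0.479% of the mean coverage of sperm. PN embryo replicate 1 carried most of it, with a sum of 28.6 against 3.87 and 6.89 in the other 2, and without it the share was 0.196%. On locus counts, over the 7 genes with loci, the share was 0.813%. Both were computed after the data were seen. Coverage in MII oocytes was 0 in every library for 7 genes, and in PN embryos for ENSSSCG00000044731 alone. It was under 1 in every MII oocyte library for 7 genes and in every PN embryo library for 6. Over the whole table, 107 of 197 genes at 0 in MII oocytes and above 0 in all sperm libraries were above 0 in any PN embryo library (54.3%). With the groups exchanged this was 44 of 134 (32.8%). The MII oocyte level entered the choice of the genes, so that nothing is read from the contrast. ENSSSCG00000044463 had 0.51, 0 and 0.24 in PN embryos, or 7, 0 and 4 counts at its locus. ENSSSCG00000047059 had 0.19, 0 and 0 (4, 0 and 0 counts). ENSSSCG00000049596 had 0, 0 and 0.19. For these 3 genes the PN embryo libraries included values of 0 and overlapped those of MII oocytes.

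ENSSSCG00000046461 and ENSSSCG00000050971 were the 2 genes above 0 in all 3 PN embryo libraries and at 0 in all MII oocyte libraries. The assembled transcript under PRM1 was likewise higher in all PN embryo libraries (8.91 to 17.2) than in any MII oocyte library (0 to 5.27), and the part of sperm RNA carried with the embryos in these values was not tested. ENSSSCG00000046461 had coverages of 1.05, 1.57 and 5.21 in PN embryos, or 16, 19 and 86 counts at MSTRG.18114. The PN embryo mean of these counts, most of it from replicate 3, was 2.83% of the sperm mean. In coverage the share was 0.987%. The transcripts of ENSSSCG00000046461 differed between libraries. In PN embryo replicate 2 the coverage was on ENSSSCT00000073899 alone, which is listed at 0 in every sperm library. In replicate 3 it was on ENSSSCT00000087125, the Ensembl transcript found in sperm, and in replicate 1 on both. ENSSSCG00000050971 had 0.05, 0.02 and 0.05, all on ENSSSCT00000079930, the main transcript of sperm. Such a separation of PN embryos above MII oocytes was met by 858 of the 35505 genes (2.42%) and by 54 of the 1725 genes with an Ensembl lncRNA transcript (3.13%). PN embryos lay below MII oocytes in this way at 1265 genes (3.56%) and at 0 of the 9. The level in MII oocytes entered the choice of the genes, and nothing is read from their share. Over the whole table, 197 genes were at 0 in MII oocytes and above 0 in all sperm libraries, and 8 of them (4.06%), these 2 genes included, were above 0 in all PN embryo libraries. With MII oocytes and PN embryos exchanged, this was 3 of 134 (2.24%), and the difference between the shares was not tested.

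The largest PN embryo value was that of ENSSSCG00000041715, with 26.8, 0 and 1.06. Replicate 1 lay above the lowest sperm library of the gene (26.4), while in the other 8 genes all sperm libraries lay above all PN embryo libraries. This held for 570 of all 35505 genes (1.61%) and for 449 of the 608 that met the rule (73.8%), and since the genes were chosen for their sperm levels nothing is read from the 8. It rested on MSTRG.45528.5, which had 25.8 in this library and 0 in all others. In counts over its loci, this library had 191 and the lowest sperm library 850, so that the groups did not overlap on that scale. Without PN embryo replicate 1, the difference from MII oocytes changed from 1.95 to 0.52 on the log2(coverage + 1) scale. ENSSSCG00000039306 and ENSSSCG00000051610 were the 2 genes whose PN embryo mean was the lower one. The mean of ENSSSCG00000051610 was 4.89 ± 8.41 (SD, n = 3) in MII oocytes and 0.76 ± 1.32 (SD, n = 3) in PN embryos, and the sign of the difference turned without MII oocyte replicate 1, from -0.78 to 0.52 on the log2(coverage + 1) scale.

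PN embryos and MII oocytes were compared with limma on log2(coverage + 1) over all genes that reached a coverage of 1 in 3 or more of the 6 libraries. A gene passed where its log2 difference was 1 or more in either direction with an adjusted p-value below 0.05. Of 14391 genes, 4 passed (0.0278%), of which 2 were higher in PN embryos (0.0139%), and 1064 had an unadjusted p-value under 0.05. Of the 9 genes, 1 could be tested and 0 passed. ENSSSCG00000046461 met the filter through its PN embryo libraries alone, so that its fitted value is a description and no support in either direction. Its difference was 1.68 (standard error 0.98, limma adjusted p = 0.771, unadjusted p = 0.115). With edgeR's quasi-likelihood test on locus counts, chosen after the data were seen, 46 of 26611 loci passed (0.173%). MSTRG.18114 was the 1 member locus of 18 that could be tested. Its fitted log2 fold change was 8.41, which is no bound since its MII oocyte libraries were all at 0. The adjusted p was 0.356 (edgeR, unadjusted p = 0.0183). This locus too met the filter through its PN embryo libraries alone, so that these values are a description and no support. On coverage, with a pseudocount of 0.1, the difference of ENSSSCG00000046461 was 4.44 (limma adjusted p = 0.612, unadjusted p = 0.0340). A two-sided exact permutation test of each gene, for which 3 libraries against 3 allow no p under 0.1, gave p = 0.1 for ENSSSCG00000046461 and ENSSSCG00000050971, 0.2 for ENSSSCG00000039306, 0.4 for ENSSSCG00000044463 and ENSSSCG00000041715, 0.7 for ENSSSCG00000051610 and 1 for the other 3. Without the filter limma gave values for 8 of the 9 genes, with adjusted p from 0.597 to 0.940, and with all 3 groups in 1 fit for all 9, with adjusted p from 0.697 to 1. The MII oocyte level entered the choice of the genes, and these tests do not decide whether the groups differed.

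The spread of a gene over the sperm libraries was set beside that of other genes with a sperm mean in the same range. Of 6888 such genes, 818 were above 0 in all 3 sperm libraries (11.9%), and over these the median ratio of SD to mean was 0.884. Over the 9 genes it was 0.547. ENSSSCG00000044463 (0.253) stood at percentile 7.46 of the 818 genes, ENSSSCG00000039306 (0.386) at 14.2, ENSSSCG00000050971 (0.428) at 16.1 and ENSSSCG00000051610 (0.466) at 18.0. ENSSSCG00000047059 stood at 21.9, ENSSSCG00000041715 at 32.5, ENSSSCG00000049596 at 50.5, ENSSSCG00000044731 at 53.1 and ENSSSCG00000046461 (1.33) at 78.5. These ratios are of coverage summed over transcripts, and the genes beside them include assembly loci. For ENSSSCG00000039306 the sum joined 8 assembled transcripts that were each in 1 sperm library. Its Ensembl transcripts alone spanned 11.3 times between sperm libraries, while those of ENSSSCG00000051610 spanned 1.24 times. The highest sperm library was more than 5 times the lowest in 4 of the 9 genes. In locus counts this was so for 2 of the 7 genes with loci, and SD over mean was 0.515 for ENSSSCG00000046461 and 0.127 for ENSSSCG00000051610. The highest library was replicate 1 for 3 genes, replicate 2 for 4 and replicate 3 for 2, so that no sperm library was highest for most of them.

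Of the list the 9 genes come from, 4 genes were outside the rule. ENSSSCG00000043175 (70.1, 211 and 0 in sperm), ENSSSCG00000050595 (0, 26.8 and 37.3) and ENSSSCG00000044913 (1187, 41.8 and 0) were each listed at 0 in 1 sperm library. ENSSSCG00000048397 was above 0 in all sperm libraries (26.5, 95.7 and 8.48), but its assembled transcripts gave MII oocytes 42.0, 68.6 and 0.28, so that the sperm mean was 1.18 times theirs. ENSSSCG00000049596 was nearest to the limit of presence from inside, with 3.57 in sperm replicate 2. In PN embryos ENSSSCG00000043175 had 0, 46.4 and 49.1.

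The genes of most similar pattern were sought among 3298 other Ensembl gene identifiers, as those nearest to the median profile of the 9 genes over all 9 libraries, by Euclidean distance of log2(coverage + 1). ENSSSCG00000039233 was nearest (distance 1.21), with 319, 166 and 284 in sperm, 0 in MII oocytes and 0.5, 0 and 0 in PN embryos. ENSSSCG00000048673 (1.74) had 110, 201 and 58.5 in sperm and was listed at 0 elsewhere. ENSSSCG00000002825 (1.76) had 113, 463 and 130, ENSSSCG00000049177 (2.06) had 690, 403 and 219, and ENSSSCG00000047914 (2.23) had 94.3, 74.4 and 73.7. Of these 5, ENSSSCG00000048673 has an Ensembl lncRNA transcript in the table, and the others are present through assembled transcripts. Of the 9 genes themselves, ENSSSCG00000044463 lay nearest to the median profile (1.05) and ENSSSCG00000049596 farthest (6.44).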

How the data were processed

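The authors deposited coverage per transcript for lncRNAs and whole-number estimated counts per assembly locus for mRNAs, each for 9 libraries and without normalization. Ribosomal RNA was removed before the strand-specific libraries were made and amplified by PCR. The submitters' processing notes name the build Sscrofa11.1, cutadapt 1.9, TopHat2 2.0.4, HISAT2 2.0.4, StringTie 1.3.4d and edgeR. How reads of overlapping genes were assigned is not given in the sources used here. The circRNA table was not used.

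Coverage was summed by the gene name of the file, or by assembly locus where it gives none. PN embryos and MII oocytes were compared with limma 3.58.1 (lmFit, eBayes with trend) in R 4.3.3 on log2(coverage + 1) with Benjamini-Hochberg adjustment, with the thresholds of the study (log2 fold change of 1, adjusted p of 0.05). The pseudocount of 1 understates folds of low genes. Locus counts were tested with edgeR 4.0.16 (quasi-likelihood) on the estimated counts. Both were tested on simulated data, where the known fold changes were recovered in size but limma called a minority of them. Only genes and loci of high level were changed in these simulations. They therefore do not show how either test performs at the low MII oocyte and PN embryo levels of the 9 genes. Permutation tests used scipy 1.17.1. The genes and lists were chosen with earlier results of these data known. All 9 genes are named, with the other 4 of their list and the 5 of nearest profile. Of the marker lists, sperm had 3 of 12 markers in the table and oocyte 2 of 9, and every marker found is named, each from assembled transcripts filed under its symbol. Alternatives were another pseudocount, scaling, quantile normalization, transcripts in place of genes, no filter, 3 groups in 1 fit, a replicate block and each replicate left out.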

Additional observations from a re-analysis of the deposited data

How the results depend on the processing

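In all 99 values of single genes under 11 alternatives, sperm stayed above MII oocytes (2.65 to 11.9 on the log2 scale), and in 99 of 99 above PN embryos (2.65 to 12.5). The choice of the genes fixed this direction, which is no sign of stability. The size depended on the processing. The median over the 9 genes of sperm minus MII oocytes was 7.09, and 10.2 with a pseudocount of 0.1, 6.65 scaled to equal summed coverage, 3.47 with 1 transcript per gene and 4.94 with Ensembl transcripts alone, an alternative chosen after the data were seen. Without 1 replicate it was 6.87 to 7.77. The median of sperm minus PN embryos was 6.92, and under the same alternatives 9.16, 6.45, 3.39 and 4.88, with 6.45 after quantile normalization and 6.54 to 7.01 without 1 replicate. PN embryos minus MII oocytes had a median of 0.08, and of 0.51 with a pseudocount of 0.1. For ENSSSCG00000051610 this difference was -0.78, but 0.54 with Ensembl transcripts alone and between -1.46 and 0.52 without 1 replicate. In the comparison of PN embryos with MII oocytes, the 4 genes that passed became 2 with a pseudocount of 0.1 and 2 after quantile normalization, 9 after scaling, 12 with transcripts, 31 without the filter, 149 with all 3 groups in 1 fit, 7 by adjusted p alone, 46 with edgeR on locus counts and 1 to 2 without 1 replicate. With the replicate block it was 3. Same-numbered libraries of both groups correlated by 0.020, -0.0020 and 0.057 in their deviations. Of the libraries, 1 of 3 MII oocyte and 2 of 3 PN embryo ones correlated best with their own number. The labels give them no more than a shared number, and these correlations do not settle whether they were paired. Of the 9 genes, 0 passed under any alternative in which limma tested 1 or more of them as genes. Requiring a coverage of at least 10 left 8 genes present in all sperm libraries. With coverage under 1 in place of 0, the genes counted as absent from every PN embryo library rose from 1 to 6. Those absent from every MII oocyte library stayed at 7. The cause of these shifts was not tested. Several PN embryo values stand for under 10 counts at a locus, which limits their precision.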
